A study of Mus musculus with 4 samples.

Results

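NF-kappaB is a family of dimeric transcription factors that the cell holds inactive in the cytoplasm, bound by inhibitors of the I-kappaB family. Signals from cytokine and Toll-like receptors activate the I-kappaB kinase complex, which marks the inhibitors for destruction and frees the dimers to enter the nucleus. Many of the genes they then switch on encode inhibitors and feedback proteins of the same pathway, and others encode cytokines, adhesion receptors and survival proteins, which tumour cells of the gut can also make. The values below cover 36 genes listed by symbol: components of this pathway and targets that are not chemokines. A gene was represented by the probe set annotated with that symbol alone, and where there were several by the one with the highest mean over the 4 arrays. By that rule 34 of the 36 genes were measured, among 22180 named genes in all, and Nfkb1 and Chuk were not analysed here. Csf2 alone among the 34 had 2 probe sets.

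The samples were 4 cultures of CT26, a colon carcinoma line of the mouse, with 1 array of the Affymetrix Mouse Gene 2.0 ST design for each. For 24 h, parental cells received either DMSO, the solvent, or Senexin B at 5 µM. This compound inhibits CDK8 and its relative CDK19, enzymes of the Mediator complex, the bridge between transcription factors and RNA polymerase II. The other two cultures were CT26-pLKO.1, carrying the empty lentiviral hairpin vector, and CT26-shCDK8, and the labels do not say whether either line was a pool or a clone, or whether it was given DMSO. In human cells CDK8 and CDK19 have been described as supporting the induction of NF-kappaB target genes, but the labels name no cytokine or other NF-kappaB stimulus for any of these cultures. With 1 array per group no difference could be tested, and each difference below is one log2 value minus another, with no replicate check.

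The arrays were alike in scale, with medians over 41345 probe sets between 5.99 and 6.04. Cdk8, the target of the hairpin, stood at 10.69 on the DMSO, 10.58 on the Senexin B, 10.79 on the pLKO.1 and 9.07 on the shCDK8 array, and was thus lowest under the label that names it. Cdk19, whose product Senexin B also inhibits, stood at 8.20, 8.36, 8.17 and 8.36 in the same order and was not lower in shCDK8. The expression limit was 5.98, the 40th percentile of the values of all named genes, and a gene that reached it on any array was called expressed, which held for 14272 genes. Cdk8 lay above the limit on all 4 arrays, shCDK8 included. Of the 9 markers listed for colon epithelium 6 were expressed, among them Krt8, Krt20, Cdh1 and Cdx2, but Epcam, Krt19 and Vil1 lay under the limit on all 4 arrays. With DMSO Krt8 stood at 7.12, Cdx2 at 6.57 and Cdh1 at 6.54, not far above the limit. Krt20 was uneven, at 8.72 with DMSO, 8.62 with Senexin B, 8.03 in pLKO.1 and 6.59 in shCDK8. The 9 markers summed on the linear scale to 1058, 1045, 869 and 756 in the same order. Of 7 measured leukocyte markers Ptprc, Adgre1, Csf1r, Itgam and Cd3e lay under the limit on all arrays, and Cd68 and Cd14 above it. All 6 genes listed as fibroblast markers were expressed, and their values are given further below. RNA was taken from whole cultures, so fewer cells of a type and less RNA per cell cannot be told apart.

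Of the 34 measured pathway and target genes 29 were expressed, and the other 5 were the cytokine genes Il6, Csf2, Tnf, Il1a and Il1b. With Senexin B, Lcn2 and Saa3 were at least 2-fold higher than with DMSO, and none of the 29 was at least 2-fold lower. Of the whole array's expressed genes 0.687% passed that threshold upward and 0.252% downward. At the smaller threshold of 1.5-fold, Rel was lower as the single addition, beside 2.35% of all expressed genes higher and 1.65% lower. In the line with the CDK8 hairpin none of the 29 differed from the vector line by 1.5-fold or more in either direction, where 1.67% of all expressed genes were higher and 1.85% lower by that much. For the 2-fold threshold these shares were 0.196% and 0.322%.

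Promoters are shown for 4 genes on which the description turns: Lcn2 and Saa3, the pair higher with Senexin B, Rel, the gene that was lower, and Nfkbia, the classic feedback target, which differed little. Each window runs from 250 bases before to 50 bases after the start of the gene, in the direction of transcription, and is taken from RefSeq for GRCm38.p6. The windows are chr2:32387690-32387989 on the minus strand for Lcn2, chr7:46715627-46715926 on the minus strand for Saa3, chr11:23770920-23771219 on the minus strand for Rel and chr12:55492598-55492897 on the minus strand for Nfkbia. In the Rel and Nfkbia windows capitals mark matches to the kappaB consensus, the DNA element that NF-kappaB dimers bind. In the Lcn2 and Saa3 windows capitals mark TTGCNNAA on either strand, a form bound by the C/EBP factors, which take part in acute-phase gene regulation.
Lcn2: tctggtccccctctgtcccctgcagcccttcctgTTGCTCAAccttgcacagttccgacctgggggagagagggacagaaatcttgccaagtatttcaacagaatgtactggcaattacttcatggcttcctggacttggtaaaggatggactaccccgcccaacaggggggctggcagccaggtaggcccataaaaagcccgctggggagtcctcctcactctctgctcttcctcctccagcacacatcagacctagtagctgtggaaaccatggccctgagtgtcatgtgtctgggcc
Saa3: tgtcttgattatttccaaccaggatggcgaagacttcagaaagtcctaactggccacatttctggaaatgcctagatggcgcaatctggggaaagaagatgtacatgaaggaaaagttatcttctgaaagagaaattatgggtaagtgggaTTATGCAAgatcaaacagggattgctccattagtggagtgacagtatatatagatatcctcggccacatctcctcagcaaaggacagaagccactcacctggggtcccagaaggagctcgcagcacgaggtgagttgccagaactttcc
Rel: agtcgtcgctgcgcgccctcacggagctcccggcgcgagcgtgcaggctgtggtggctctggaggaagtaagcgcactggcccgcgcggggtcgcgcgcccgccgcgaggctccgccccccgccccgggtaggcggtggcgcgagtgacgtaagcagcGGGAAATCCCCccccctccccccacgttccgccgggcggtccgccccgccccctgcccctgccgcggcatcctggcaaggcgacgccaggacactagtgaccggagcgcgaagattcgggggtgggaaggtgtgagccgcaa
Nfkbia: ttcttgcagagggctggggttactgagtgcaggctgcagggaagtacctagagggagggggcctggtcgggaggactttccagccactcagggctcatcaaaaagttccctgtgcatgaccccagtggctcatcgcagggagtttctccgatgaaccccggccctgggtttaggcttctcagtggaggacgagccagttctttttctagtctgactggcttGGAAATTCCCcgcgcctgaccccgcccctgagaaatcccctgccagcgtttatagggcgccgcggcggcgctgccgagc

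Both strands of each window were searched, and overlapping matches of a motif were joined. The match in Rel is an overlap of neighbouring matches on a single stretch that begins 92 bases before the start, and the match in Nfkbia begins 29 bases before it. The Lcn2 window matched TTGCNNAA 216 bases and the Saa3 window 99 bases before the start, and neither window held a match to the kappaB consensus, which says only that these letters are not in the windows.

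Lcn2 encodes lipocalin 2, a secreted protein that withholds iron from bacteria by binding their siderophores, and it is a textbook target of NF-kappaB together with its cofactor I-kappaB-zeta. Its probe set 17383892 stood at 10.51 with DMSO, 11.73 with Senexin B, 10.39 in pLKO.1 and 10.43 in shCDK8. The Senexin B array alone was high, and the other 3 arrays lay close to one another. The difference from DMSO was 1.21, or 2.32-fold, and 64th from the top among the 14272 expressed genes. Against the pLKO.1 array, the other control, the difference was 1.34.

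Saa3 encodes serum amyloid A3, an acute-phase protein that in the mouse is made mainly outside the liver. Its values on probe set 17491193 were 6.01 with DMSO, 7.18 with Senexin B, 5.88 in pLKO.1 and 5.85 in shCDK8. Here too the Senexin B array alone stood apart, while the other 3 lay around the expression limit, where the size of a difference is uncertain. The difference from DMSO was 1.18, or 2.26-fold, and 70th from the top. Set against pLKO.1 it was 1.30.

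Rel encodes c-Rel, a subunit with a transactivation domain that is best known from lymphocytes. It stood at 8.60 with DMSO, 7.75 with Senexin B, 8.44 in pLKO.1 and 8.32 in shCDK8 on probe set 17261107. The Senexin B array was the low one. Its difference from DMSO was -0.85, with the higher array 1.81-fold above the lower one, and 59th from the bottom among the expressed genes. It was -0.69 against pLKO.1.

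**Figure D1:**
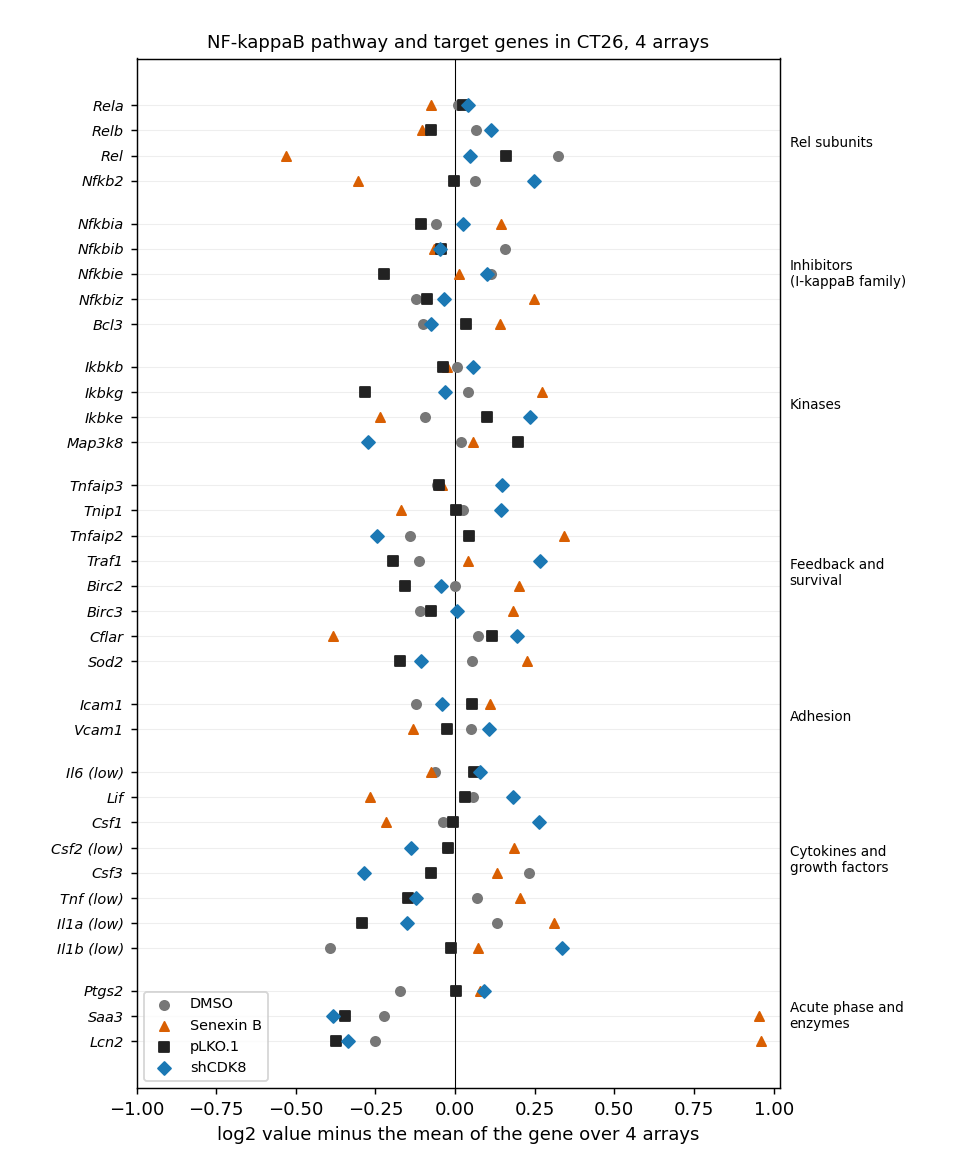
Each row is a measured gene and each symbol an array, plotted as the log2 value minus the mean of that gene over the 4 arrays, with genes grouped by role and those under the expression limit marked as low. Lcn2 and Saa3 are set off to the right on the Senexin B array and Rel to the left, and the other genes lie closer to the mean, the next widest being Il1b, under the expression limit, with a range of 0.73 over the arrays.

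The other subunits of the transcription factor also gave negative differences with Senexin B, all smaller than that of Rel. Nfkb2, the precursor of the p52 subunit of the noncanonical branch, stood at 9.88 with DMSO, 9.51 with Senexin B, 9.81 in pLKO.1 and 10.06 in shCDK8. The Senexin B array was lowest and the shCDK8 array highest, and the differences were -0.37 with the inhibitor and 0.25 with the hairpin. Relb, the partner of p52, had differences of -0.17 and 0.19. Rela, the p65 subunit of the main dimer, was nearly level at 11.16, 11.07, 11.17 and 11.19 on the DMSO, Senexin B, pLKO.1 and shCDK8 arrays. All 4 measured subunit genes were thus below 0 with Senexin B, as were 7865 of 14272 expressed genes. The median of the 4 was -0.27 with Senexin B, 0.10 with the hairpin and -0.10 between the control arrays, pLKO.1 minus DMSO.

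Among the inhibitors none differed by 1.5-fold in either comparison. Nfkbia, which encodes I-kappaB-alpha and is induced by NF-kappaB itself, stood at 10.30 with DMSO, 10.50 with Senexin B, 10.25 in pLKO.1 and 10.38 in shCDK8. Its differences of 0.20 and 0.13 were both positive. Nfkbiz, which encodes the nuclear cofactor I-kappaB-zeta needed for Lcn2 induction in mouse macrophages, was at 8.74, 9.11, 8.78 and 8.83 in the same order, so that the Senexin B array was again the high one. Its difference from DMSO was 0.37, and that in shCDK8 was 0.052. Nfkbie, which encodes I-kappaB-epsilon, had the reverse pattern, with -0.10 for Senexin B and 0.32 for shCDK8, but its pLKO.1 value was also the lowest of the 4, at -0.34 from DMSO, and the hairpin difference against DMSO was -0.012. Nfkbib, the gene of I-kappaB-beta, gave -0.22 and -0.0027. Bcl3, whose nuclear product works with p50 and p52 homodimers, gave 0.24 and -0.11.

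The 4 measured kinases lay within 0.3 of 0 for Senexin B minus DMSO, as did 78.8% of all expressed genes. Ikbkb, the catalytic kinase of the canonical branch, lay within 0.094 over the 4 arrays. Ikbkg, its regulatory subunit NEMO, was 0.23 higher with Senexin B and 0.25 higher with the hairpin. It was lowest on the pLKO.1 array, which was at -0.32 from DMSO, and the Senexin B difference against pLKO.1 was 0.55. Ikbke, a related kinase that also acts in interferon induction, gave -0.14 and 0.13, and -0.34 for Senexin B against pLKO.1. Map3k8, the kinase TPL2 that links NF-kappaB1 p105 to ERK, stood at 6.65 with DMSO, 6.69 with Senexin B, 6.83 in pLKO.1 and 6.36 in shCDK8. Its shCDK8 array was the low one, and the difference of -0.47 from pLKO.1 was the lowest of the 29 genes in that comparison.

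Feedback and survival genes showed small differences of both signs. Tnfaip2, a TNF-induced gene linked to membrane nanotubes, stood at 9.77 with DMSO, 10.26 with Senexin B, 9.96 in pLKO.1 and 9.67 in shCDK8. The Senexin B array was highest, and the differences were 0.48 and -0.29. Cflar, whose product c-FLIP blocks caspase-8, stood at 8.84, 8.38, 8.88 and 8.96 in that order. The Senexin B array was the low one, with -0.45 from DMSO and -0.50 from pLKO.1, and the shCDK8 difference was 0.077.

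Traf1, which encodes an adaptor of TNF receptors, was at 8.22 with DMSO, 8.37 with Senexin B, 8.14 in pLKO.1 and 8.60 in shCDK8. The hairpin difference of 0.46 was the highest of the 29 genes in that comparison. Tnfaip3, the ubiquitin-editing brake A20, was 0.017 from DMSO with Senexin B and 0.20 from pLKO.1 in shCDK8, and Tnip1, which encodes an A20-binding protein, gave -0.20 and 0.14. The inhibitor-of-apoptosis genes Birc2 and Birc3, whose products c-IAP1 and c-IAP2 are ubiquitin ligases at TNF receptors, gave 0.20 and 0.29 with Senexin B and 0.12 and 0.082 with the hairpin. Sod2, the mitochondrial superoxide dismutase, gave 0.17 and 0.065.

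Both adhesion receptors were expressed, and neither moved far. Vcam1, the ligand of integrin alpha4 beta1, stood at 10.78, 10.60, 10.70 and 10.84 on the DMSO, Senexin B, pLKO.1 and shCDK8 arrays. Icam1, the ligand of the leukocyte integrin LFA-1, stood at 6.64, 6.87, 6.82 and 6.72. Their 4 differences lay between -0.18 and 0.23.

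Of the 8 cytokine and growth factor genes only Lif, Csf1 and Csf3 were expressed. Csf1, the macrophage colony-stimulating factor, stood at 11.74 with DMSO, 11.56 with Senexin B, 11.77 in pLKO.1 and 12.04 in shCDK8. Lif, an interleukin-6 family cytokine, stood at 9.10, 8.77, 9.07 and 9.22 in the same order. Both were lowest with Senexin B and highest in shCDK8, with differences of -0.18 and 0.27 for Csf1 and -0.32 and 0.15 for Lif. Csf3, the granulocyte colony-stimulating factor, gave -0.10 and -0.21, and its shCDK8 value was -0.52 from DMSO. The 5 genes under the limit, among them Tnf with a highest value of 5.89 and Il6 with a highest value of 3.73, allow no statement about a difference.

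Ptgs2, the inducible cyclooxygenase COX-2, was nearly level at 12.75 with DMSO, 13.00 with Senexin B, 12.92 in pLKO.1 and 13.01 in shCDK8. It was lowest on the DMSO array, so that it differed by 0.25 with Senexin B, by 0.090 with the hairpin and by 0.17 between the controls. Of the 3 genes grouped as acute phase genes and enzymes it was thus the one that did not stand apart with Senexin B.

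**Figure D2:**
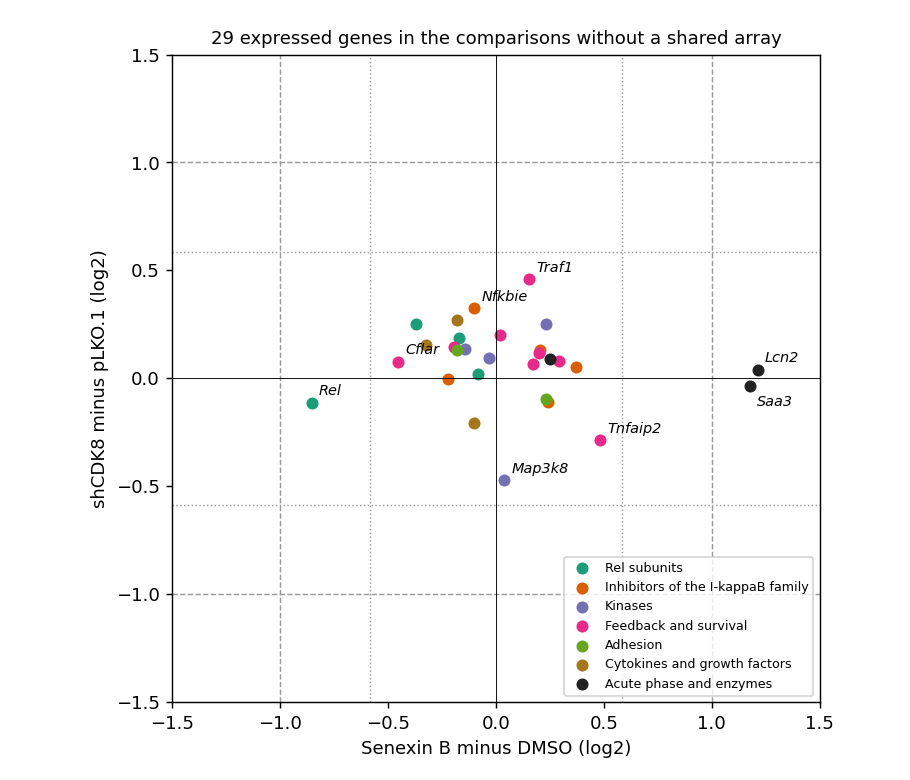
Each point is an expressed gene of the set, with its log2 difference for Senexin B minus DMSO across and for shCDK8 minus pLKO.1 upward, coloured by role, and dashed and dotted lines at 2-fold and 1.5-fold. Lcn2 and Saa3 lie beyond 2-fold and Rel beyond 1.5-fold along the horizontal axis, and no gene lies beyond 1.5-fold along the vertical axis.

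Taking the 29 expressed genes as a set, the median difference for Senexin B was 0.017, beside -0.028 over all expressed genes, and 15 of the 29, or 51.7%, lay above 0, beside 44.8% of all. The SD over the genes was 0.42 for the set and 0.29 for all, and 72.4% of the set lay within 0.3 of 0, beside 78.8% of all. For shCDK8 minus pLKO.1 the median was 0.090, beside 0.0038 over all, and 21 of the 29 lay above 0, beside 50.8% of all expressed genes. Their range was narrow, from -0.47 to 0.46, with an SD of 0.19 beside 0.26 over all. Set against DMSO instead, shCDK8 had a median of 0.053, with 18 of the 29 above 0, beside 47.5% of all. Between the control arrays the median was -0.041, the SD was 0.15 and none of the 29 was 1.5-fold apart, beside 0.603% of all expressed genes higher and 0.434% lower. The members were chosen with earlier results of these arrays known, and these counts are a description.

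The inhibitor and hairpin comparisons have no array in common, and the signs of the differences in them were mixed. Of the 29 genes 10 were above 0 in both, 3 below 0 in both, 11 below with Senexin B and above with the hairpin, and 5 the other way round. Over all expressed genes these shares were 24.1%, 28.4%, 26.7% and 20.7%. Lcn2 and Saa3 differed by 0.040 and -0.038 in the hairpin comparison and Rel by -0.11, and the difference between the comparisons was not tested. Few genes stood apart with the hairpin at all, 1.67% of all expressed genes being at least 1.5-fold higher and 1.85% lower. Over all expressed genes the Pearson correlation between the inhibitor and hairpin differences was 0.0078, and over the 29 it was -0.14. The shCDK8 array held the highest of the 4 values for 13 of the 29 genes, or 44.8%, beside 28.7% of all expressed genes. Its control pLKO.1 held the highest for 1, or 3.4%, beside 17.8% of all. For 8 genes, or 27.6%, pLKO.1 was lowest, beside 21.7% of all. The Senexin B array held the highest for 11 and the lowest for another 11, each 37.9%, beside 26.9% and 31.2% of all.

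**Figure D3:**
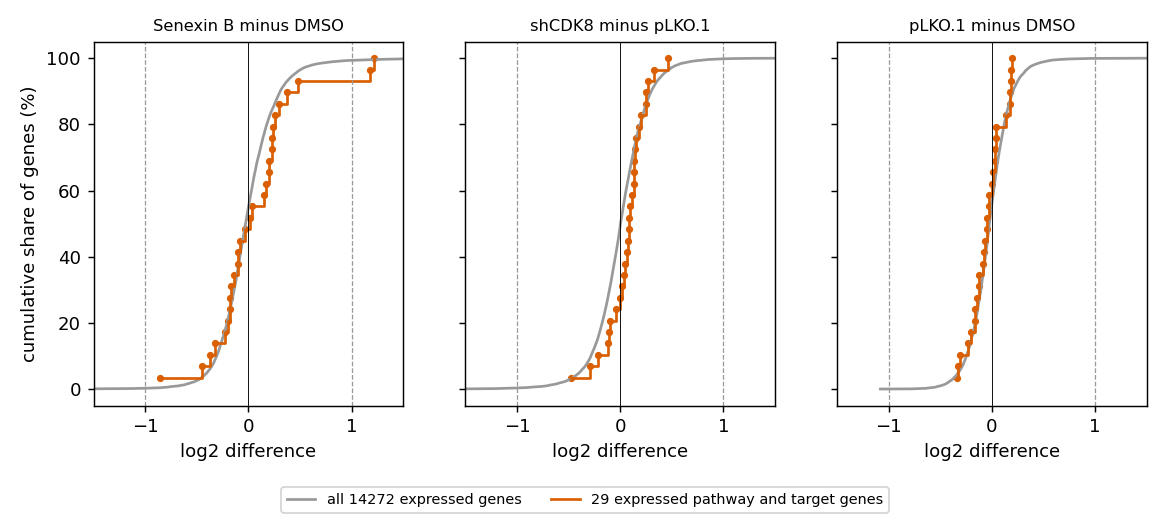
Cumulative share of genes in percent against the log2 difference, for the 29 expressed genes of the set in orange and for all 14272 expressed genes in grey, in 3 comparisons, with dashed lines at 2-fold. The curves lie close together except for Lcn2 and Saa3 at the right end and Rel at the left end of the Senexin B panel and a shift to the right of the middle of the orange curve in the shCDK8 panel, where the medians were 0.090 and 0.0038.

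Promoter sequence was also searched. The list was chosen to hold NF-kappaB targets, so its share of kappaB matches is not independent of that choice. Of the 36 genes 29 had at least 1 RefSeq promoter window, and 10 of these matched the kappaB consensus: Rel, Nfkb2, Nfkbia, Nfkbie, Bcl3, Tnfaip3, Tnip1, Sod2, Il6 and Csf1. That is 34.5% of them, beside 5.14% of 27025 genes with a window. TTGCNNAA was found in 6, namely Lcn2, Saa3, Ptgs2, Cflar, Il6 and Csf2, or 20.7% beside 12.2%. With Senexin B the 9 expressed genes with a kappaB match had a median difference of -0.10, ranging from -0.85 to 0.24. The 14 expressed genes with a window but no match had a median of 0.22, ranging from -0.45 to 1.21. With the hairpin the medians were 0.14 and 0.079, and between the controls -0.046 and -0.0057. Relb, Nfkbiz, Ikbkb, Map3k8, Vcam1 and Csf3 were expressed but had no window, and are in neither group. The group without a match holds NF-kappaB targets such as Lcn2, so the split does not separate targets from other genes. It was not repeated with another form of the motif. Several genes of the first group encode the pathway's own subunits and inhibitors, so promoter match and role overlap here.

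Genes elsewhere in the pathway were taken from a list of 57 receptors, adaptors, ubiquitin editors and ligands, of which 52 were measured and 49 expressed. This list too was chosen with earlier results of these data known. In shCDK8 none of the 49 was at least 1.5-fold higher and 5 were lower, beside 1.67% and 1.85% of all expressed genes. With Senexin B 4 were higher by that much and none lower, beside 2.35% and 1.65% of all. The 3 receptors among the 4 were Tnfrsf11a, the RANK receptor, with a difference of 0.70, Tlr2, a sensor of bacterial lipoproteins, with 0.63, and Tnfrsf1b, the second TNF receptor, with 0.59. They differed by 0.032, -0.23 and -0.020 between the controls. The remaining one, Usp18, a deISGylase and a textbook interferon-stimulated gene, gave 1.60, but it also differed by 1.21 between the controls and by 0.39 from pLKO.1.

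In shCDK8 the 5 lower genes of this list were Nkap, Il33, Usp18, Tnfrsf11a and Nkrf. Against the DMSO array 3 genes of the list were 1.5-fold lower, beside 325 of all 14272 expressed genes. Of the 5 only Nkap and Il33 were among them. Nkap, an NF-kappaB-activating protein that also acts in RNA splicing, stood at 7.88 with DMSO, 7.92 with Senexin B, 8.15 in pLKO.1 and 7.06 in shCDK8. Its difference of -1.09 was the single one past 2-fold, and against DMSO it was -0.82. Il33, an alarmin of the interleukin-1 family, gave -0.93, and -0.84 against DMSO, with a shCDK8 value under the expression limit. Nkrf, a repressor that binds NF-kappaB target promoters, gave -0.59, and -0.50 against DMSO. Usp18 was at -0.74 from pLKO.1 but at 0.47 from DMSO, so its direction turned with the control. Tnfrsf11a was the one gene of these lists past 1.5-fold in opposite directions in both comparisons other than Usp18, at 0.70 and -0.59, and at -0.56 for shCDK8 against DMSO. Of all 14272 expressed genes 13404 lay within 0.5 of 0 with Senexin B and 13479 with the hairpin. The adaptors and kinases were within 0.5 in both comparisons, all 17 expressed ones, including the Toll-like receptor adaptor Myd88. Against the other control array this did not hold for Myd88, at -0.59 for shCDK8 minus DMSO, or for Card10, a scaffold of the CARD family, at -0.58 there and 0.63 for Senexin B minus pLKO.1.

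**Figure D4:**
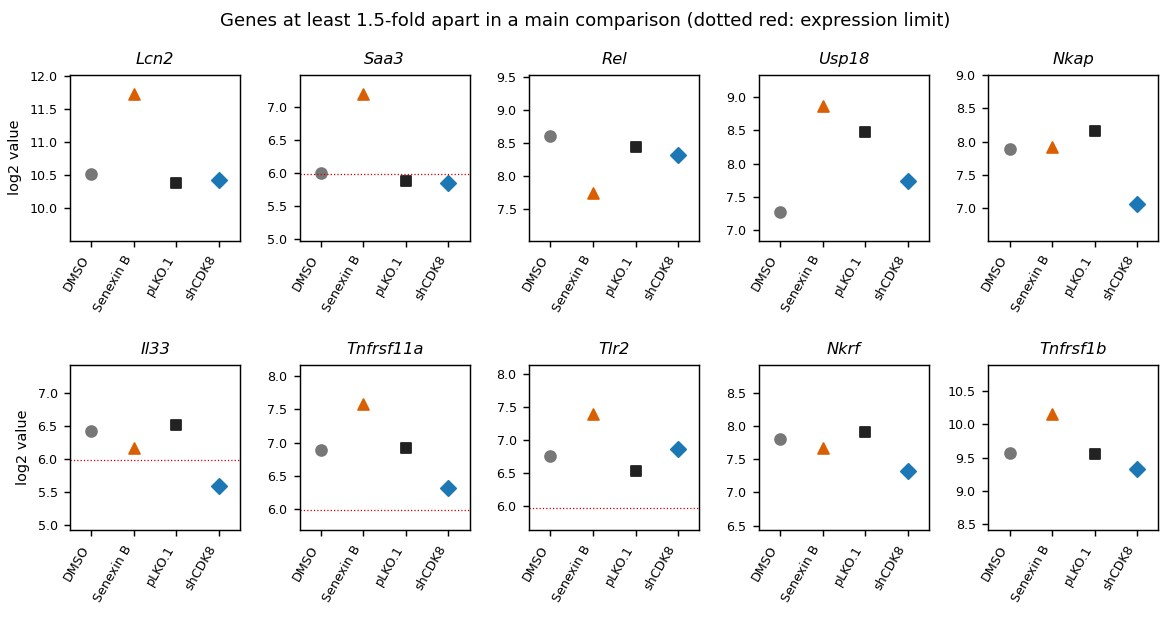
Log2 values on the 4 arrays for the 10 genes of the set and of the wider pathway list that were at least 1.5-fold apart in the inhibitor or the hairpin comparison, each panel spanning the same range of log2 units, with the expression limit of 5.98 dotted in red. Lcn2, Saa3, Usp18, Tnfrsf11a, Tlr2 and Tnfrsf1b are highest and Rel lowest on the Senexin B array, and Nkap, Il33, Nkrf and Tnfrsf11a are lowest on the shCDK8 array.

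Some genes listed as markers of other cell types were, like Lcn2 and Saa3, higher on the Senexin B array than on the DMSO array. All cultures were labelled as CT26. With DMSO alone Col3a1 stood at 10.08, Pdgfra at 9.09, Col1a1 at 9.06 and Dcn at 9.01. Thy1 stood at 6.75 there, and Fap at 5.89, under the expression limit. All 6 fibroblast markers were expressed, and their summed level on the linear scale was 2840 with DMSO, 6203 with Senexin B, 3182 in pLKO.1 and 2337 in shCDK8. With Senexin B 5 of the 6 were above DMSO, with Dcn at 2.29, Pdgfra at 1.24, Col3a1 at 0.57, Col1a1 at 0.23 and Thy1 at 0.21. Fap was at -0.46, but both of its values there lay under the expression limit. Dcn also differed by 0.58 between the controls. For shCDK8 minus pLKO.1, 4 of the 6 were below 0, Col3a1 at -1.27, Fap at -0.94, Dcn at -0.82 and Col1a1 at -0.16. Pdgfra at 0.39 and Thy1 at 0.30 were above it. The 7 measured leukocyte markers summed to 1086 with DMSO, 1425 with Senexin B, 1104 in pLKO.1 and 1086 in shCDK8. Cd14, a coreceptor of Toll-like receptor 4, was at 0.79 and Cd68 at 0.12 for Senexin B minus DMSO. The other 5, Ptprc, Adgre1, Csf1r, Itgam and Cd3e, were under the expression limit on every array and gave values between -0.39 and -0.062. Endothelial markers, 4 of 5 expressed, summed to between 293 and 347. Whether the differences of these genes are related to those of Lcn2 and Saa3 was not tested.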

How the data were processed

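Biotin-labelled total RNA of 4 CT26 cultures was hybridised, per the labels' protocols. Values were deposited as log2 expression, 1 for each probe set on each array, and the submitters' processing notes name RMA and Affymetrix Expression Console as the authors' tools. Versions, settings and joint normalization of the arrays: not given in the sources used here. In general RMA brings the arrays of a run onto a shared distribution, and where that was done a change of every gene at once cannot be seen. It also compresses the differences of low signals. Gene names come from the platform's annotation. Of 41345 probe sets, the 23521 with 1 symbol were used, and 1814 with several symbols and 16010 with none were left out. All 36 symbols matched the RefSeq table of GRCm38.p6.

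Log2 values were subtracted between arrays. Each group being a single array, precision is limited by their number, and there is no test, error or p-value. Counts used expressed genes at least 2-fold or 1.5-fold apart. The members and lists were chosen with earlier results of these data known. The genes named were all 36 members, Cdk8 and Cdk19, and the markers used to check the line. Genes of the pathway list at least 1.5-fold apart in a main comparison were added. A list of acute-phase and related genes was also added after values had been seen. The computation was tested on simulated data. Alternatives concerned the filter, normalization, probe sets, thresholds, a floor, the control array and the motif. Python 3.11.15, pandas 2.3.3 and statsmodels 0.14.6 were used.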

Additional observations from a re-analysis of the deposited data

How the results depend on the processing

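Each difference rests on 2 arrays, so neither biological nor technical spread is known, and values near the expression limit are the least certain. No paired analysis was possible because each group has 1 array. With the expression limit at the 60th percentile, 7.19, 1 member rather than 2 was at least 2-fold higher with Senexin B, since Saa3 with a highest value of 7.18 was then left out. At a 3-fold threshold 0 members were higher, and at 1.5-fold 1 was lower, which was Rel. With a shorter form of the kappaB motif 4 promoters of the set matched rather than 10, which follows from its narrower definition. The median over expressed members ranged from -0.030 to 0.088 for Senexin B, the negative value with the 60th percentile limit. It ranged from 0.053 to 0.12 for the hairpin and from -0.041 to -0.012 between the controls. Of 73 recomputed counts and medians 69 stayed within the limits used, a factor of 1.5 for counts and 0.1 for medians. The limit of 0.1 is wider than each main median, so a change of sign could stay within it. Averaging probe sets involved no expressed member, since only Csf2 had 2 of them. The number 69 is therefore a weak measure of how stable the results are. With the other control as reference, Lcn2 was at 1.34, Saa3 at 1.30 and Rel at -0.69 on the Senexin B array.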

Other observations

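Other acute-phase genes, picked after the values of Lcn2 and Saa3 had been seen and therefore given as a description, also differed on the Senexin B array. Cp, which encodes the copper-carrying ferroxidase ceruloplasmin, stood at 10.10 with DMSO, 11.50 with Senexin B, 9.79 in pLKO.1 and 10.20 in shCDK8. Hp, which encodes the haemoglobin-binding protein haptoglobin, stood at 6.50, 7.57, 6.28 and 6.72 in the same order. Both were highest on the Senexin B array, with differences from DMSO of 1.40 and 1.07, and both were also above pLKO.1 in shCDK8, by 0.42 and 0.44, but by 0.10 and 0.22 when set against DMSO, since both were lowest in pLKO.1. Cebpb, a C/EBP factor of acute-phase regulation, differed by 0.81 with Senexin B and -0.18 with the hairpin, and Cebpd by 0.34 and 0.19, while Cebpa was nearly level at -0.092 and 0.028. Not all acute-phase genes shared this pattern: Orm2 gave 0.082 and Stat3, a transcription factor of the acute phase, 0.077 with Senexin B, Orm1 gave 0.36 and -0.98, with its shCDK8 value under the expression limit, and Saa2, Saa4 and Lbp lay under the limit on all 4 arrays. Socs3, from the same list, gave 0.25 with Senexin B and -0.22 with the hairpin, and Saa1 and C3 were not measured.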
